A study of Homo sapiens with 5 samples.

Results

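A set of 10 genes of neuronal and neural crest lineages was followed in HEK293 cells: SOX4, SOX11, MLLT11, UCHL1, STMN1, STMN2, DPYSL2, DPYSL3, MAP1B and GAP43. They were chosen by name from the gene column of the deposited count table, with no threshold on their values. Of the 10 genes, 9 had a row among the 24497 gene rows, and STMN2 was not analysed here. HEK293 is a long-established line from human embryonic kidney, grown here untreated in DMEM with glutamine and fetal calf serum. Libraries selected the 5' ends of transcripts after priming with oligo-dT, and each carried the material of 100 cells out of a lysate of 1000 cells, amplified over 18 PCR cycles. Batch A has 2 libraries and batch B has 3, and the labels describe both in the same way. Libraries are named by the numbers that end their columns, which are 2 and 3 for batch A but 1, 2 and 3 for batch B.

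Gene counts came to 373687 to 803168 per library. A count of 0 in a library allows up to 3 counts, or 8.03 CPM (counts per 1000000 gene counts) in the shallowest library and 3.74 CPM in the deepest. Synthetic spike-in RNA gave 1785 and 2127 counts in the batch A libraries and 1 to 19 in those of batch B. Nothing in the labels says whether libraries came from separate cultures, so the p-values cover no more than library-to-library spread, which may be technical. Each library is bulk RNA, and fewer cells of a type cannot be told apart from less RNA per cell.

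SOX4 and SOX11 are SoxC transcription factors, which act in progenitors and newly formed neurons and switch on genes of the neuronal cytoskeleton. The others serve neurite growth in different ways. Stathmins bind tubulin dimers and destabilise microtubules, MAP1B binds and stabilises them, and the collapsin response mediator proteins DPYSL2 and DPYSL3 carry semaphorin signals to tubulin and actin. GAP43 is a membrane protein of growth cones, UCHL1 is a ubiquitin hydrolase abundant in neurons, and MLLT11 is a small protein first found as a fusion partner of MLL in leukaemia. Cultured HEK293 cells have long been known to carry transcripts of neuronal genes.

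The libraries keep the 5' ends of transcripts, and the stretch before a gene's start is shown as background to where transcripts begin. Bases before a start do not belong to a transcript begun there. RefSeq starts on GRCh38.p14 were found for 7 of the 10 genes, 11 starts in all; SOX11, STMN2 and DPYSL2 were not matched. The sequences below belong to STMN1, the steadiest of the genes over the libraries, and to DPYSL3, whose batches did not overlap. Only bases outside the exons of GENCODE release 29 are shown, for 1 of the 3 STMN1 starts and 1 of the 2 DPYSL3 starts. The STMN1 stretch runs from 250 to 48 bases before its start, and the DPYSL3 stretch from 250 to 1. Capitals mark matches, on either strand, to the CCAAT box (CCAAT) and the GC box (GGGCGG).
STMN1, chr1:25906467-25906669, minus strand: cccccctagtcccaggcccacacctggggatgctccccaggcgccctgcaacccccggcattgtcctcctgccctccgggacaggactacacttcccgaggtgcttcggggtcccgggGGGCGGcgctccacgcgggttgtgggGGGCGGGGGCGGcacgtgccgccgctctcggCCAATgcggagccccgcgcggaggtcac
DPYSL3, chr5:147510069-147510318, minus strand: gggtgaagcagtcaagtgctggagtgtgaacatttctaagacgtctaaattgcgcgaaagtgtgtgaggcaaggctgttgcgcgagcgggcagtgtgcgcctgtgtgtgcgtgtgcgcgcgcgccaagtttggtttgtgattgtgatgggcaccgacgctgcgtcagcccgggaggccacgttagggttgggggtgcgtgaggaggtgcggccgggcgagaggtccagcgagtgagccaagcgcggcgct

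The STMN1 stretch held 3 GC boxes, of which a pair adjoined, and 1 CCAAT box. The DPYSL3 stretch held none of the motifs searched, while the window before the other DPYSL3 start held 3 GC boxes. In CpG dinucleotides the DPYSL3 stretch had 25, against 20 in the shorter STMN1 stretch. Over the full 250 bases before that STMN1 start there were also 25. Over the 250 bases before each of the 11 starts, a GC box stood before 7, a CCAAT box before 4 and a TATA box (TATAAA) before 3, on either strand. In all 35116 RefSeq windows of that length the shares were 42.6%, 32% and 10.7%. The letters TTCAGCACC, the left part of the element bound by the neuronal gene repressor REST, stood before 0 of the 11 starts and in 0.288% of all windows. No matches overlapped. These matches describe letters, not bound sites. Of the 11 windows, 10 contained bases of an exon of GENCODE release 29, and all 250 bases did for SOX4, MLLT11 and 1 of the 2 starts of DPYSL3. Exons of other genes and of other transcripts of the same gene count here too, and a table of counts per gene does not show which start was used.

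The genes spanned a wide range of levels. Their summed share of gene counts averaged 0.165% ± 0.0104 (SD, n = 2) for batch A and 0.182% ± 0.00669 (SD, n = 3) for batch B. By library it came to 0.158% (exact Clopper-Pearson 95% interval 0.149 to 0.168) and 0.173% (0.164 to 0.182) in batch A libraries 2 and 3. It was 0.19% (0.176 to 0.204), 0.178% (0.167 to 0.189) and 0.178% (0.168 to 0.189) in batch B libraries 1, 2 and 3. The intervals cover counting error only, and both batch A libraries lay below all 3 of batch B. Without SOX4 the shares were 0.0999% ± 0.0039 for batch A and 0.105% ± 0.000434 for batch B. SOX4 held 41% of the 5427 counts of the 9 genes, STMN1 held 34.2% and UCHL1 held 15.4%. The remaining 6 genes shared the rest, from 5.1% for MAP1B down to 0.0369% for GAP43.

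Mean CPM over the 5 libraries ran from 723 for SOX4 through 595 for STMN1, 270 for UCHL1, 89.7 for MAP1B, 31.2 for DPYSL2, 24.3 for DPYSL3 and 17.5 for MLLT11 to 1.71 for SOX11 and 0.54 for GAP43. In CPM the ranges overlapped for SOX4 and STMN1, DPYSL2 and DPYSL3, and DPYSL3 and MLLT11, the first of each higher in 4 of 5 libraries. They also overlapped for SOX11 and GAP43, with SOX11 higher in 2 of 5. Levels of different genes are compared per kilobase of the longest principal transcript in GENCODE release 29. Reads selected for 5' ends need not grow with transcript length, so both scales are given. On the scale per kilobase STMN1 led at 348 CPM, ahead of UCHL1 at 230 and SOX4 at 124, and each stood above the next in all 5 libraries. MAP1B, whose transcript of 12036 bases is the longest of the set, came next at 7.45 CPM per kilobase, with SOX4 16.6-fold above it. It did not stand apart from DPYSL2 at 6.78 CPM per kilobase, since the ranges over libraries overlapped and MAP1B was higher in 3 of 5. The ranges of DPYSL2 and DPYSL3, at 4.58, also overlapped, though DPYSL2 was higher within each of the 5 libraries (ratio 1.06 to 1.95). Ranges overlapped as well for DPYSL3 and MLLT11 at 4.29, and for GAP43 at 0.319 and SOX11 at 0.196 CPM per kilobase. MLLT11 was above GAP43 in all 5 libraries.

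**Figure D1:**
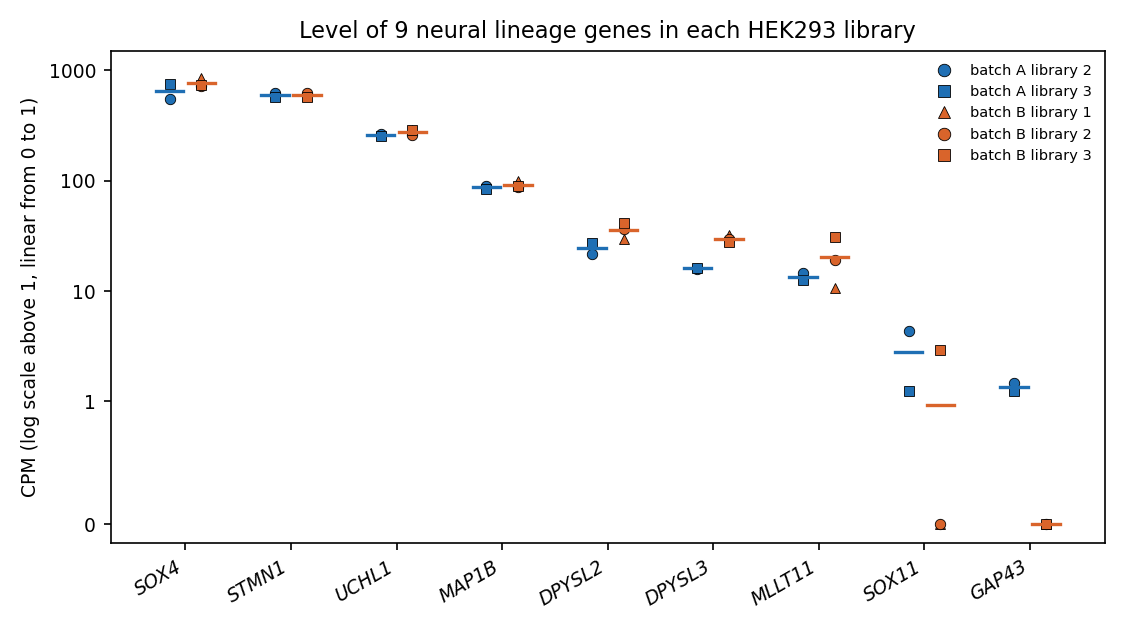
CPM of the 9 genes (horizontal axis) in each library, on a vertical axis that is logarithmic above 1 CPM and linear from 0 to 1. Blue symbols are batch A, orange symbols batch B, bars are batch means; SOX4, STMN1 and UCHL1 lie above 250 CPM in every library, and GAP43 has 0 in all 3 batch B libraries.

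SOX4 was the most variable of the abundant genes. It had 380 and 607 counts in batch A libraries 2 and 3, and 318, 417 and 501 counts in batch B libraries 1, 2 and 3. As CPM these were 553 and 756 for batch A, then 851, 725 and 731 for batch B, so that batch A library 2 was the lowest and batch A library 3 lay within the range of batch B. Its rank by mean CPM was 193 among all gene rows, in the top 0.788%. The coefficient of variation of SOX4 over the 5 libraries was 14.9%, where counting alone would give 4.91%. The batch means were 654 ± 143 CPM (SD, n = 2) and 769 ± 71.1 CPM (SD, n = 3), a difference smaller than the spread within batch A.

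SOX11, the SoxC relative of SOX4, was close to the limit of detection. It had 3 and 1 counts in batch A libraries 2 and 3, and 0, 0 and 2 counts in batch B libraries 1, 2 and 3. Pooled over all libraries its 6 counts gave 1.92 CPM, with an exact Poisson 95% interval of 0.705 to 4.18 for counting error only. SOX12, the other SoxC factor, had 77.2 and 73.5 CPM for batch A and 85.6, 109 and 93.4 CPM for batch B. Per kilobase the 3 SoxC genes stood at 124 CPM for SOX4, 19 for SOX12 and 0.196 for SOX11. Of the SOX list of 19 genes, 16 had a row, and 3 of these (SOX3, SOX15 and SOX30) had 0 counts in all libraries. Between batches 5 were tested and 0 called, against 4.2% of all 9215 tested genes. SOX2, a factor of neural progenitors, had 13.1 to 16.2 CPM. SOX10, a factor of neural crest and its glia, had 7 counts in all, 5 of them in batch B library 3.

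MLLT11 was low and variable. It had 10 and 10 counts in batch A libraries 2 and 3, and 4, 11 and 21 counts in batch B libraries 1, 2 and 3. In CPM the batch B libraries ran from 10.7 to 30.6, on both sides of the 14.6 and 12.5 of batch A. Its coefficient of variation was 45.7%, against 30.9% from counting alone.

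UCHL1 was abundant and even. It had 264 and 253 CPM in batch A libraries 2 and 3, and 286, 259 and 288 CPM in batch B libraries 1, 2 and 3. The batches overlapped, with means of 258 ± 7.61 CPM (SD, n = 2) for batch A and 278 ± 16.2 CPM (SD, n = 3) for batch B. An antisense gene, UCHL1-AS1, overlaps part of the stretch before the UCHL1 start in GENCODE release 29, and whether counting used strand is not given in the sources used here, so reads of the 2 genes cannot be told apart there. Among its relatives UCHL3 had 145 CPM, UCHL5 had 122 and BAP1 had 110 as means over the 5 libraries. Per kilobase UCHL1 was at 230 CPM, UCHL3 at 172, BAP1 at 27.8 and UCHL5 at 22.9. All 4 were tested between the batches and 0 were called, against 4.2% of all 9215 tested genes.

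STMN1 was the steadiest of the 9 genes. It had 616 and 575 CPM in batch A libraries 2 and 3, and 589, 624 and 574 CPM in batch B libraries 1, 2 and 3. The highest library was 1.09 times the lowest. Its coefficient of variation of 3.9% was below the 5.37% that counting alone would give, as was that of UCHL1, at 5.96% against 8%. STMN1 is also the stathmin of proliferating cells, whereas STMN3 and STMN4 are known from neurons. STMN3 had 33 to 64.2 CPM over the libraries, and STMN4 had 0 counts in all of them. Per kilobase STMN1 stood at 348 CPM and STMN3 at 20.3. The processed pseudogene STMN1P2 had a row with 0 counts in all 5 libraries, and reads of near-identical copies may be shared in ways the table does not show.

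MAP1B had 88.8 and 84.7 CPM in batch A libraries 2 and 3, and 99, 86.9 and 89 CPM in batch B libraries 1, 2 and 3. The batches overlapped, and the coefficient of variation of 6.14% was below the 13.9% of counting alone. GAP43 had 1 count in each batch A library and 0 in each batch B library. Both batches were at or under the limit of 3 counts over the group, 2.01 CPM for batch A and 1.84 CPM for batch B, so no fold is given. Its relatives in growth cones differed in level: MARCKSL1 had 386 CPM and MARCKS had 313 CPM as means over the libraries, both of them substrates of protein kinase C that bind actin and membrane, and RTN4, the neurite growth inhibitor Nogo, had 209 CPM. Of this list of 14 genes 12 had a row, 7 were tested and 0 were called, against 4.2% of all 9215 tested genes.

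**Figure D2:**
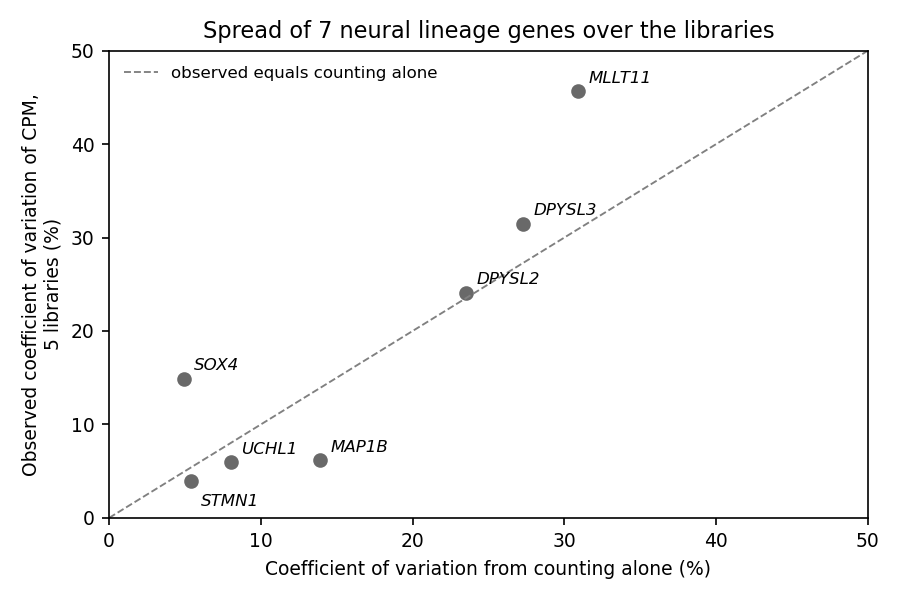
Observed coefficient of variation of CPM over the 5 libraries (vertical axis, percent) against that expected from counting alone (horizontal axis, percent) for the 7 genes with counts in every library. The dashed line marks equal values; SOX4 at 14.9% lies above it, and STMN1, UCHL1 and MAP1B lie below it.

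The comparison of batch B with batch A sets 2 batches of the same untreated line side by side. SOX11 and GAP43 were too low for the filter on counts, and 7 of the 9 genes were tested. None of the 7 was called by edgeR's quasi-likelihood test at a Benjamini-Hochberg adjusted p under 0.05, in a table where 4.2% of 9215 genes were called, 2.15% higher and 2.05% lower in batch B. At an unadjusted p under 0.05 edgeR listed 2 of the 7, SOX4 and DPYSL3, limma-voom listed 2 and DESeq2 listed 0. Both of these other tools called 0 after adjustment, though DESeq2 gave no adjusted p to MLLT11, DPYSL2 and DPYSL3. The same unadjusted threshold was passed by 16.4% of the 9215 genes with edgeR, 16.5% with limma-voom and 7.85% with DESeq2. All 7 fitted log2 fold changes were above 0, with a median of 0.24, against 4648 above 0 among the 9215 tested genes and a median of 0.00396. Leaving out batch A library 3 moved the median of the 7 to 0.48, with 6 above 0. Leaving out batch B library 1 moved it to 0.16, and without batch B library 2 the count above 0 was 5 of 6. The libraries of the 2 batches did not overlap in CPM for 2 of the 7, DPYSL2 and DPYSL3, a share near the 31.3% of all tested genes. Both were higher in batch B, as were 13.5% of all tested genes without overlap.

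The related genes DPYSL3 and DPYSL2 were the tested members whose batches did not overlap. DPYSL3 had 11 and 13 counts in batch A libraries 2 and 3, and 12, 17 and 19 counts in batch B libraries 1, 2 and 3. In CPM this was 16 and 16.2 for batch A, then 32.1, 29.5 and 27.7 for batch B, with every batch B library higher. The fitted log2 fold change was 0.89 (SE 0.40, 95% interval 0.0989 to 1.67, edgeR adjusted p = 0.226). DPYSL2 had 21.8 and 27.4 CPM in batch A libraries 2 and 3, and 29.4, 36.5 and 40.9 CPM in batch B libraries 1, 2 and 3. Every batch B library was again higher, with a log2 fold change of 0.58 (SE 0.33, interval -0.0759 to 1.23, edgeR adjusted p = 0.386).

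The value for SOX4 rested on single libraries. Its log2 fold change was 0.24 (SE 0.11, 95% interval 0.0269 to 0.461, edgeR adjusted p = 0.226). Without batch A library 2 it was 0.07, without batch A library 3 it was 0.48 and without batch B library 1 it was 0.16 (edgeR adjusted p = 0.914, 0.0926 and 0.514). MLLT11 was at 0.71 with an interval of -0.181 to 1.59, and did not pass the count filter when batch B library 2 or 3 was left out. Intervals for the other 3 genes were narrower than that of MLLT11 and included 0. They ran from -0.102 to 0.357 for UCHL1, from -0.282 to 0.461 for MAP1B and from -0.188 to 0.24 for STMN1 on the log2 scale. STMN1, at 0.03, turned to -0.04 without batch A library 3 and to -0.01 without batch B library 2. The edgeR spread was pooled over genes, so these intervals do not follow the spread of each gene itself. With DESeq2 the log2 fold change of SOX4 was 0.25 with an SE of 0.19.

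**Figure D3:**
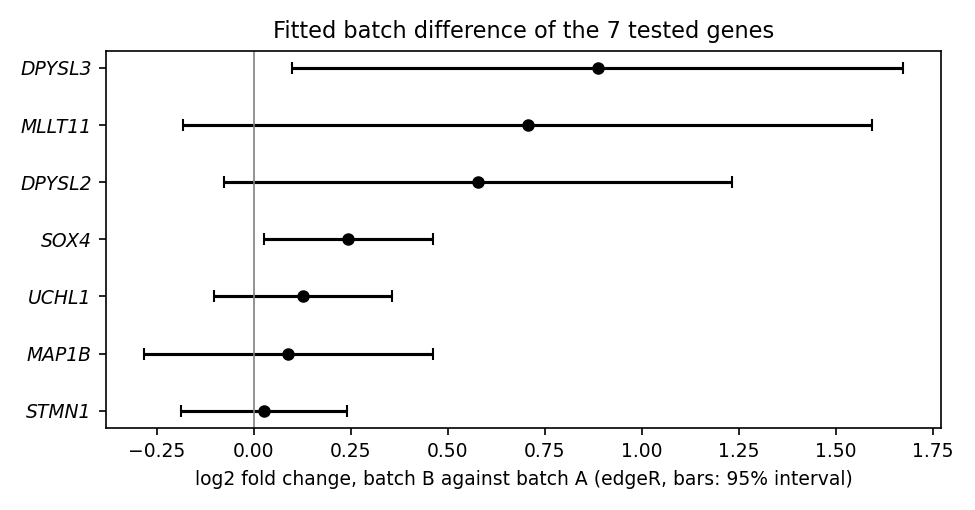
Fitted log2 fold change of batch B against batch A (horizontal axis) for the 7 tested genes (vertical axis), with 95% intervals from edgeR. All 7 points lie above 0, the intervals of SOX4 and DPYSL3 exclude 0 before adjustment, and the narrowest interval belongs to STMN1, near 0. The intervals use a spread pooled over genes.

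The CRMP family was the only one of the member families with a called gene, in a table where 4.2% of 9215 genes were called. The SOX, stathmin and ubiquitin hydrolase lists had 5, 2 and 4 tested genes and 0 calls. DPYSL5, a CRMP of developing neurons, had 62 and 86 counts in batch A libraries 2 and 3, and 22, 40 and 35 counts in batch B libraries 1, 2 and 3. It was lower in every batch B library, with means of 98.7 ± 11.9 CPM (SD, n = 2) for batch A against 59.8 ± 9.25 CPM (SD, n = 3) for batch B. It fell by 0.71 on the log2 scale (SE 0.20, edgeR adjusted p = 0.0184). The call was lost with DESeq2 (adjusted p = 0.141) and with edgeR without batch A library 3 (-0.60, adjusted p = 0.273) or without batch B library 3 (-0.55, adjusted p = 0.191). DPYSL4 had 29.1 and 21.2 CPM for batch A and 18.7, 13.9 and 17.5 CPM for batch B, also lower in every batch B library. Its log2 fold change was -0.56 (edgeR adjusted p = 0.548). Of all 9215 tested genes, 17.8% were lower in batch B without overlap. The fifth gene of the family, CRMP1, had 1 count in all. Of the 4 tested CRMP genes 0 were called higher and 1 lower, with a median log2 fold change of 0.01.

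Within a library, the ratio of DPYSL5 to DPYSL2 counts came to 4.13 and 3.91 for batch A libraries 2 and 3, then 2, 1.9 and 1.25 for batch B libraries 1, 2 and 3. A ratio within a library needs no scaling between libraries. The pair was chosen after its values were seen, and the difference was not tested. The ratio of DPYSL2 to DPYSL3 was 0.917 to 1.69 over the libraries, with the batches overlapping. The ratio of STMN1 to UCHL1 was 1.99 to 2.41.

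**Figure D4:**
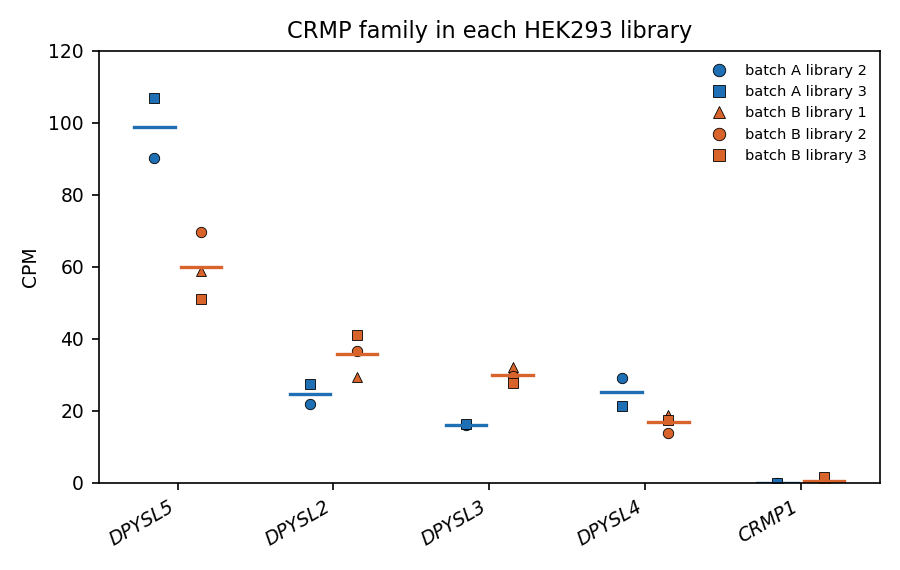
CPM (vertical axis, from 0) of the 5 CRMP family genes (horizontal axis) in each library, blue for batch A and orange for batch B, with bars at the batch means. DPYSL5 and DPYSL4 are lower in all 3 batch B libraries, DPYSL2 and DPYSL3 are higher in all 3, and CRMP1 is at or near 0. Of all 9215 tested genes, 17.8% were lower and 13.5% higher in batch B without overlap.

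Upstream and partner genes of these pathways gave no calls, in a table where 4.2% of 9215 genes were called. With so few tested genes, 0 calls does not set these lists apart. Of 17 genes that carry semaphorin signals to CRMPs, 7 were tested and 0 were called, with a median log2 fold change of 0.02. CDK5 and GSK3A, kinases that act on CRMPs, had mean levels of 108 and 91 CPM, and the kinase FYN had 54.5 CPM. Of 18 microtubule-associated protein genes 15 had a row, 10 were tested and 0 were called (median -0.04). MAP1LC3B, an autophagy protein of the MAP1 light chain family, had 186 CPM, MAPRE1, which binds growing microtubule ends, had 153 CPM, and MAP4, a MAP found in most cell types, had 129 CPM. Batch B lay below batch A in every library for MAP1LC3B and MAPRE1 and above it for MAP4, with log2 fold changes of -0.33, -0.33 and 0.40 (edgeR adjusted p = 0.134, 0.185 and 0.145). Such separation was common, with 17.8% of all tested genes lower and 13.5% higher in batch B without overlap. In the list of the REST repressor and its cofactors, 13 of 14 genes were tested and 0 called (median 0.13). HDAC1 had 258 CPM, HDAC2 had 209 and the demethylase KDM1A had 182. REST itself, named after its values were seen, had 34.8 to 46.7 CPM.

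Neural progenitor markers were measured beside the members, and summed to 729 to 788 CPM for batch A and 889 to 966 CPM for batch B. Of 15 genes 14 had a row and 10 were tested, of which 1 was called higher and 0 lower, with a median log2 fold change of 0.08. HES1, a repressor downstream of Notch that holds back neuronal differentiation, had 272 and 300 CPM in batch A libraries 2 and 3, and 444, 448 and 378 CPM in batch B libraries 1, 2 and 3. It rose by 0.57 on the log2 scale (SE 0.11, edgeR adjusted p = 3.39e-05), and DESeq2 gave an adjusted p = 0.0011. Leaving out any 1 of the 5 libraries kept the call, with adjusted p from 4.66e-06 to 0.013. CDH2, the neural cadherin, had 85 CPM and ASPM, a spindle protein of dividing progenitors, had 75 CPM as means over the libraries.

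Markers that define other cell types were checked in the same libraries. Mature neuron markers summed to 134 to 141 CPM for batch A and 149 to 198 CPM for batch B over 15 of 16 genes with a row, of which SNAP25 and SLC17A6 were at 0 in every library. The most abundant were VAMP2 (58.3 CPM), ENO2 (27.2) and ELAVL2 (16.5). Neural crest markers, 15 of 17 with a row, summed to 163 to 208 CPM for batch A and 221 to 228 CPM for batch B, led by TFAP2A (63.4), MSX1 (47.1) and MSX2 (34.5). Summed levels were higher in every batch B library for both of these lists and for the progenitor, proneural factor, kidney and fibroblast lists. The sympathoadrenal, epithelial, glial and blood sums overlapped. HES1 alone gave 272 and 300 CPM of the batch A progenitor sums and 378 to 448 CPM of those of batch B. Fibroblast sums were at most 24.8 CPM. Among single tested genes 31.3% did not overlap between batches, and 13.5% were higher in batch B without overlap. No such share was computed for lists. The levels of DPYSL2 and DPYSL3 were also higher in every batch B library, and the part of these lists in them was not tested. Of the 3 tested neuron and 5 tested crest markers, edgeR called 0, against 4.2% of all 9215 tested genes.

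Proneural and neuronal transcription factors, 17 of 21 with a row, summed to 252 to 255 CPM for batch A and 276 to 294 CPM for batch B. They had 6 tested genes and 0 calls (median 0.12), where 4.2% of all 9215 tested genes were called. ONECUT2 was at 84.9 CPM, POU4F1 at 67.6 and POU3F2 at 35.6. Sympathoadrenal markers, 11 of 16 with a row, summed to 122 to 130 CPM for batch A and 101 to 155 CPM for batch B. GATA2 (71.7 CPM) and GATA3 (33.6) led that list, while the secretory granule genes CHGA, CHGB, SCG3 and SCG5 were at 0 in every library. Kidney markers, 11 of 17 with a row, summed to 136 to 162 CPM for batch A and 166 to 184 CPM for batch B, with PAX8 and UMOD at 0. Epithelial KRT18 and KRT8 had 63 and 45.5 CPM, while CDH1, KRT19 and CLDN4 had 0 counts. Glial markers, all 11 with a row, summed to 23.3 to 24.9 CPM for batch A and 10.7 to 30.7 CPM for batch B, with S100B, OLIG1 and MOG among those at 0. Fibroblast markers, 7 of 8 with a row, summed to 4.37 to 11.2 CPM for batch A and 13.4 to 24.8 CPM for batch B, with COL1A2, PDGFRB and THY1 at 0. Blood markers summed to 2.49 to 12.2 CPM over 6 of 10, and the 2 endothelial genes with a row, VWF and CLDN5, were at 0 throughout.

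The genes of the table whose levels lay closest to those of each member over the 5 libraries were found by Euclidean distance of log2(CPM + 1), for members of at least 20 CPM. YWHAB was nearest to SOX4, at a distance of 0.23, and followed its low value in batch A library 2 with 581 CPM. RANBP1 was nearest to STMN1 (0.124), TYMS to UCHL1 (0.114) and C15orf39 to MAP1B (0.12). CYB561D2 was nearest to DPYSL2 (0.217), and SESTD1 to DPYSL3 (0.179), with 14.6 and 17.4 CPM for batch A and 32.1, 29.5 and 29.2 CPM for batch B. The distance covers level as well as pattern and rests on 5 libraries. Each nearest gene was picked from the 24497 gene rows on these same values, so a shared pattern follows from the choice.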

How the data were processed

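The table deposited by the authors holds whole-number counts per gene for 5 libraries, with no normalization, and 52 spike-in rows kept out of all totals. The builds hg19 and GRCh37 and the tools STAR 2.4.0a and cutadapt 1.2.1 are named, per the submitters' processing notes. Not given in the sources used here are the counter, its annotation, any use of strand and any collapsing of molecular identifiers. Without such collapsing, intervals may understate the error. The prefix of each column, found in the titles of 1 batch alone, gave its batch, and 0 columns were left unused. Depth was 373687 to 803168 gene counts.

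Batches were compared over the whole table with edgeR 4.0.16 in R 4.3.3 (TMM scaling, filterByExpr, quasi-likelihood F test, Benjamini-Hochberg adjusted p under 0.05), after a check on simulated data. Standard errors were taken as log2 fold change over √F. The fit had infinite prior degrees of freedom, so the spread behind these errors was pooled over genes. Alternatives were DESeq2 1.42.0 on all gene rows, limma-voom (limma 3.58.1), other scalings and filters, and leaving out each library. The members and the 19 lists were chosen with earlier results of these data known. Named genes are the members, up to 3 called genes and the 3 of highest CPM per list, any gene of the member families, markers at 0 and each member's nearest gene. Promoters are from RefSeq (GRCh38.p14), which is another build than the counts, and transcript lengths from GENCODE release 29, matched by name.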

Additional observations from a re-analysis of the deposited data

How the results depend on the processing

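No member was called in any of the 12 alternatives, and the lowest adjusted p, 0.0926 for SOX4, came without batch A library 3. The number of genes called in the whole table, 198 higher and 189 lower of 9215 tested, was 64 and 47 with DESeq2, which gave an adjusted p to 3150. Without a filter on low counts 121 were higher and 138 lower of 20087. Leaving out each library in turn gave 79 to 170 higher and 58 to 163 lower, with over 1.5 times fewer calls each way without batch A library 2 (80 and 58), batch A library 3 (79 and 73) or batch B library 2 (110 and 92). The summed share of the members was 0.158% to 0.173% in batch A and 0.178% to 0.184% in batch B when a library was left out, and 0.191% in batch B with mitochondrially encoded rows out of the total. Fits with 1 batch A library take its spread from batch B. The cause of these shifts was not tested. MLLT11, DPYSL2 and DPYSL3 had no value at a mean count of at least 20, nor an adjusted p from DESeq2. A replicate block on the number that ends the column names, added after seeing the data, gave 206 higher and 188 lower calls with 1 residual degree of freedom. These numbers are not the replicate numbers of the titles, and same-numbered libraries did not deviate together (r = 0.0109 and -0.0172 across 9215 genes). The median log2 fold change of the tested members was 0.15 with the block and 0.12 over the 4 with a mean count of at least 20. The block gave SOX4 a log2 fold change of 0.15 and MAP1B 0.03, against 0.24 and 0.09. It put MLLT11 (0.90) above DPYSL3 (0.83), as did leaving out batch B library 1 (0.91 and 0.83). At these depths SOX11 and GAP43 cannot be compared between batches.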
